A study of Mus musculus with 2 samples.

Results

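Bile acid genes were followed in the liver of mice that had lost the insulin receptor in fat. The set holds 10 genes, namely *Cyp7a1*, *Cyp8b1*, *Cyp27a1*, *Cyp7b1*, *Slc27a5*, *Baat*, *Abcb11*, *Slc10a1*, *Nr1h4* and *Nr0b2*, taken by their symbols from the 53342 rows that the authors deposited for each liver. All 10 had 1 row each and all 10 were above the expression minimum of 41.8 normalized reads in both libraries. There was 1 control library and 1 iFIRKO library. The iFIRKO mouse carries Adipoq-CreERT2, a Cre recombinase that tamoxifen switches on and that the adiponectin promoter restricts to adipocytes, together with Insr flox/flox, whose floxed insulin receptor gene is thereby deleted in adipocytes and not in hepatocytes. The control group is WT in the sample labels and IR flox/flox in the study's methods. Both groups were male, 7 weeks old at the start, and both received tamoxifen, at 100 mg/kg on 5 days, with the liver taken on day 3 after the last dose. Neither source says whether a library came from 1 mouse or from a pool. With 1 library per group, no difference has a replicate check, and no p-value was computed.

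Bile acids are made from cholesterol in hepatocytes, secreted into bile to absorb dietary fat, and carried back to the liver by the portal blood. The classic route begins with CYP7A1, and the alternative route with CYP27A1 followed by CYP7B1. CYP8B1 directs the product towards cholic acid. Bile acids that return to the hepatocyte activate the nuclear receptor FXR, which induces the repressor SHP and the export pump, and which is known to restrain *Cyp7a1* in this way and through FGF15 from the ileum.

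In the iFIRKO liver, 3 of the 4 cytochrome P450 genes of bile acid synthesis and the SHP gene were lower. *Cyp7b1* was lowest against control, with a fold of 0.482, and *Nr0b2* (fold 0.583), *Cyp27a1* (0.599) and *Cyp7a1* (0.650) also lay past the 1.5-fold limit that the study used. *Cyp8b1*, the uptake carrier gene *Slc10a1*, *Baat* and the FXR gene *Nr1h4* were higher by 1.14-fold to 1.39-fold, within the limit. Of the 10 genes, 4 (40.0%) were more than 1.5-fold lower and 0 more than 1.5-fold higher. Over all 13400 genes above the minimum, 7.28% were more than 1.5-fold lower and 4.46% more than 1.5-fold higher. Because bile acid genes are abundant, a closer background is the 4511 genes with a mean level at or above that of *Nr0b2*, the lowest of the set, of which 2.68% were lower and 2.33% higher. The median log2 fold change was -0.33 over the 10 genes, against 0.0075 over all genes above the minimum and 0.021 over the 4511.

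An estimated 42276584 reads on genes were behind the control values and 41304952 behind the iFIRKO values. Values below are normalized reads, the deposited log2 values returned to the linear scale. Brackets hold 95% intervals (Clopper-Pearson, exact) for the ratio of estimated read pairs. They cover counting error only and say nothing of the spread between mice. The fold change is iFIRKO over control with a pseudocount of 4.18 normalized reads. *Insr* itself stood at 4246 (control) and 3692 (iFIRKO), or -0.20 on the log2 scale (-0.29 to -0.11), and since the deletion is in adipocytes this value does not check the genotype. Among marker genes, hepatocyte genes were near level as a sum (log2 ratio -0.09), with 1 of 7, *Apoa1*, past the limit at -0.94. Kupffer cell genes were below 0 in 7 of 7, 4 of them past the limit, with a sum of 29295 normalized reads in control and 19166 in iFIRKO. Endothelial genes were also below 0 in 7 of 7, 2 past the limit, with sums of 10400 and 7582, whereas the 7 stellate genes summed to 10154 and 10428. The 6 erythroid genes were all past the limit upwards, with sums of 13455 and 27006. Beside these counts, 7.28% of all genes above the minimum were past the limit downwards and 4.46% upwards. The median log2 fold change of all these genes was 0.0075. The 8 cholangiocyte genes summed to 4987 and 4646, of which *Slc10a2* made up 2617 and 2608. All 6 above the minimum were below 0 and none was past the limit, but only the interval of *Spp1* left out no change. *Krt7* was at -0.45 (-1.14 to 0.19) and *Krt19* at -0.42 (-0.92 to 0.04). *Cftr* and *Sctr* did not reach the minimum. In bulk liver, fewer cells of a type and less RNA per cell cannot be told apart, and the part of these shifts in the bile acid results was not tested.

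**Figure D1:**
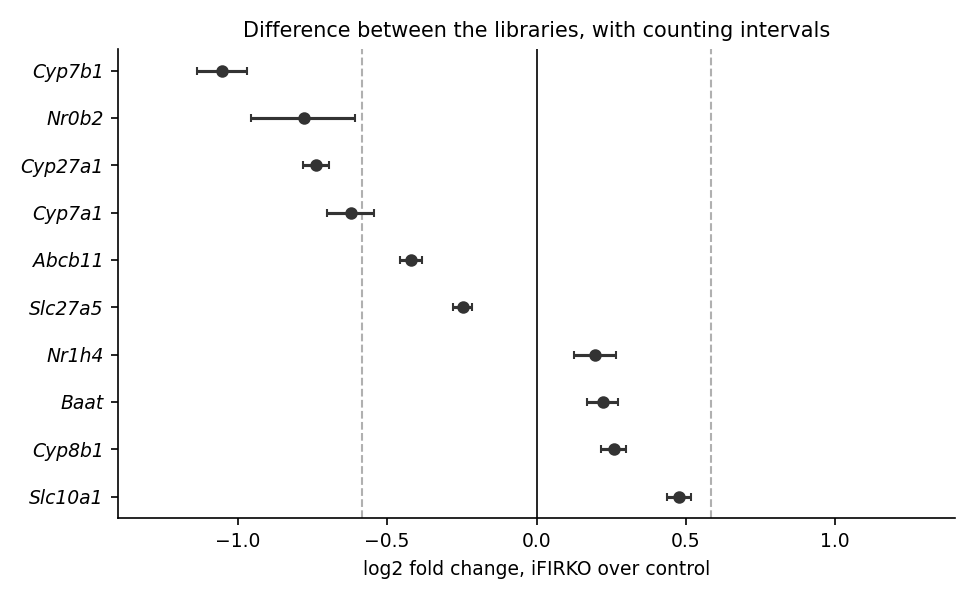
Log2 fold change, iFIRKO over control, of the 10 bile acid genes. Points are the values of 1 library against 1 library, bars are the 95% counting intervals and dashed lines mark 1.5-fold. *Cyp7b1*, *Nr0b2* and *Cyp27a1* lie wholly past the lower line, the interval of *Cyp7a1* crosses it, and no gene reaches the upper line.

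*Cyp7a1* encodes cholesterol 7α-hydroxylase, the rate-limiting enzyme of the classic route (chromosome 4 of GRCm38, 6265612 to 6275633, reverse strand, 6 exons). It measured 6698 normalized reads in control against 4351 in iFIRKO, that is a log2 fold change of -0.62 (-0.70 to -0.54). Its interval includes the 1.5-fold limit, which lies 0.58 from no change on the log2 scale, so the depth does not place it firmly past the limit. Of all genes above the minimum, 6.45% had a lower log2 fold change, and of the 1584 genes within 2-fold of its level, 3.16% had.

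*Cyp27a1* encodes the mitochondrial sterol hydroxylase that opens the alternative route and also oxidises the side chain in the classic one (chromosome 1, 74713574 to 74737892, forward strand, 9 exons). It stood at 22578 in the control and 13527 in the iFIRKO library (normalized reads), with a log2 fold change of -0.74 (-0.78 to -0.70). *Cyp7b1* encodes the oxysterol hydroxylase that acts next in that route (chromosome 3, 18071950 to 18243338, reverse strand, 6 exons). It was at 7069 normalized reads in control against 3409 in iFIRKO, with a log2 fold change of -1.05 (-1.14 to -0.97). Only 1.70% of all genes above the minimum, and 0.656% of the 1676 genes within 2-fold of its level, had a lower log2 fold change than *Cyp7b1*. Both log2 fold changes of the alternative route were below that of *Cyp7a1*, but the intervals of *Cyp27a1* and *Cyp7a1* overlapped and only that of *Cyp7b1* lay apart.

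*Cyp8b1*, a gene with 1 exon, encodes the sterol 12α-hydroxylase required for cholic acid (chromosome 9, 121914356 to 121916305, reverse strand). It went the other way, at 16126 normalized reads (control) and 19288 (iFIRKO), with a log2 fold change of 0.26 (0.22 to 0.30). The ratio of *Cyp8b1* to *Cyp7a1* reads within a library, which no scaling of the library can move, was 2.41 in control and 4.43 in iFIRKO, 1.84-fold higher. On the log2 scale this difference was 0.88, with a normal-approximation counting interval from 0.79 to 0.97. The ratio of *Cyp7b1* to *Cyp7a1* per kb of transcript was 2.03 in control and 1.51 in iFIRKO, a log2 difference of -0.43 (-0.54 to -0.32).

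Conjugation to taurine or glycine makes bile acids soluble and fit for export. *Slc27a5* encodes the bile acyl-CoA ligase that activates them (chromosome 7, 12988346 to 12998192, reverse strand, 10 exons). It was the most abundant of the set in reads, at 35480 normalized reads (control) and 29899 (iFIRKO), with a log2 fold change of -0.25 (-0.28 to -0.22). *Baat* encodes the transferase that adds the amino acid (chromosome 4, 49489422 to 49506557, reverse strand, 4 exons). It was at 11228 in control against 13091 in iFIRKO, with a log2 fold change of 0.22 (0.17 to 0.27). The successive steps thus differed in opposite directions and by small amounts, both inside the 1.5-fold limit.

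Both transporter genes of the set were inside the limit, on opposite sides of control. *Abcb11* encodes the bile salt export pump of the canalicular membrane (chromosome 2, 69238282 to 69342616, reverse strand, 29 exons). It was at 28259 normalized reads (control) and 21127 (iFIRKO), giving a log2 fold change of -0.42 (-0.46 to -0.38). *Slc10a1* encodes NTCP, the sodium-dependent carrier that takes conjugated bile acids up from portal blood (chromosome 12, 80953183 to 80968705, reverse strand, 6 exons). It measured 17506 normalized reads in control against 24353 in iFIRKO, that is a log2 fold change of 0.48 (0.44 to 0.52), the highest of the set and above 93.4% of all genes that passed the minimum. Per kb of transcript, the carrier gene exceeded the pump gene in both libraries, with an *Abcb11* to *Slc10a1* ratio of 0.562 in control and 0.302 in iFIRKO. The log2 difference of that ratio, on which transcript length has no effect, was -0.90 (-0.95 to -0.84).

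*Nr1h4*, the FXR gene (chromosome 10, 89454234 to 89533585, reverse strand, 10 exons), stood at 6200 in the control and 7096 in the iFIRKO library (normalized reads), with a log2 fold change of 0.19 (0.13 to 0.26). *Nr0b2*, the gene of the repressor SHP (chromosome 4, 133553376 to 133556536, forward strand, 2 exons), had 1480 and 861, a log2 fold change of -0.78 (-0.96 to -0.61). It was the least abundant of the set, with 745 and 428 estimated read pairs, so its interval is the widest. Only 1.19% of the 4541 genes within 2-fold of its level had a lower log2 fold change. Of *Nr0b2* and *Abcb11*, textbook targets that FXR induces, *Nr0b2* was past the limit and *Abcb11* inside it, as was *Nr1h4* itself. *Cyp7a1* and *Nr0b2* were lower together, and the ratio of *Cyp7a1* to *Nr0b2* reads was 4.53 in control and 5.05 in iFIRKO. That difference of 0.16 on the log2 scale had an interval from -0.03 to 0.35, so it was not detectable at this depth.

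RefSeq promoters of GRCm38.p6, each running from 250 bases before the transcription start to 50 bases from it, were at hand for 6 of the 10 genes (*Cyp8b1*, *Cyp27a1*, *Abcb11*, *Slc10a1*, *Nr1h4* and *Nr0b2*), with 7 promoters in all. *Cyp7a1*, *Cyp7b1*, *Baat* and *Slc27a5* had no entry. The promoters of *Abcb11* (chr2:69342567-69342866, reverse strand) and *Nr0b2* (chr4:133553126-133553425, forward strand) are shown because both genes are textbook FXR targets, of which *Nr0b2* was past the 1.5-fold limit and *Abcb11* was not. They are written 5′ to 3′ with motif matches in capitals.

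Abcb11: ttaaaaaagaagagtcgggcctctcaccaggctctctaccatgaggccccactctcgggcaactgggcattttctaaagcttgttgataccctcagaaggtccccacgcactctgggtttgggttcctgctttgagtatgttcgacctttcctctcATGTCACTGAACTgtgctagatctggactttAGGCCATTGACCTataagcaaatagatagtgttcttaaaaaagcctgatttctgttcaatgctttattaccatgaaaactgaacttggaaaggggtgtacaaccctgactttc

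Nr0b2: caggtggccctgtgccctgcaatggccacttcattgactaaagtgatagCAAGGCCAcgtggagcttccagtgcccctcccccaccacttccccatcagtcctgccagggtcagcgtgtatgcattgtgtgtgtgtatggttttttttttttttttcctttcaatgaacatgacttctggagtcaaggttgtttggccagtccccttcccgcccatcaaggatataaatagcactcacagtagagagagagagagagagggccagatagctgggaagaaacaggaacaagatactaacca

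The motif to which FXR and RXR bind together, the inverted repeat IR-1, was searched as AGGTCANTGACCT with up to 2 mismatches outside the N. It reads the same on both strands. The *Abcb11* promoter held 2 matches, AGGCCATTGACCT at -63 to -51 from the start with 1 mismatch, and ATGTCACTGAACT at -94 to -82 with 2 mismatches. No other promoter of the set held one, and 1.14% of all 32851 promoters did. The motif of LRH-1, the receptor encoded by *Nr5a2*, was searched on both strands as CAAGGTCA and CAAGGCCA without mismatches. *Nr0b2* held CAAGGCCA at -201 to -194, as did 2.40% of all promoters, and no member held CAAGGTCA, which 1.56% held. The direct repeat DR-1, AGGTCANAGGTCA with up to 2 mismatches on either strand, was found only in *Nr1h4*, and in 3.86% of all promoters. The *Nr1h4* promoter searched (chr10:89506609-89506908, reverse strand) lies inside the gene span given above and not at its 5′ end. None of these matches overlapped another. They are matches of letters in a short window and not measured sites.

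Levels can be compared between genes only per length of transcript, for which the longest protein-coding transcript of GENCODE M21 was taken. In the control liver the order in normalized reads per kb was *Slc27a5* (15507), *Cyp27a1* (11933), *Slc10a1* (10009), *Cyp8b1* (8270), *Baat* (5785), *Abcb11* (5624), *Cyp7b1* (3264), *Nr1h4* (3080), *Cyp7a1* (1605) and *Nr0b2* (1307). The counting intervals of *Baat* and *Abcb11* overlapped, as did those of *Cyp7b1* and *Nr1h4*, and other neighbours in that order were apart. In the iFIRKO liver the order was *Slc10a1* (13924), *Slc27a5* (13068), *Cyp8b1* (9891), *Cyp27a1* (7149), *Baat* (6745), *Abcb11* (4204), *Nr1h4* (3525), *Cyp7b1* (1574), *Cyp7a1* (1043) and *Nr0b2* (761), with no overlap between neighbours. *Cyp27a1* moved from rank 2 to rank 4 and *Slc10a1* from rank 3 to rank 1. *Cyp7a1* stayed at rank 9, and per kb *Cyp8b1* exceeded it 5.15-fold in control and 9.48-fold in iFIRKO. The transcript of *Cyp7a1* is 4172 nt long, against 1950 nt for *Cyp8b1*, so another length model would move these levels but not the fold changes.

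**Figure D2:**
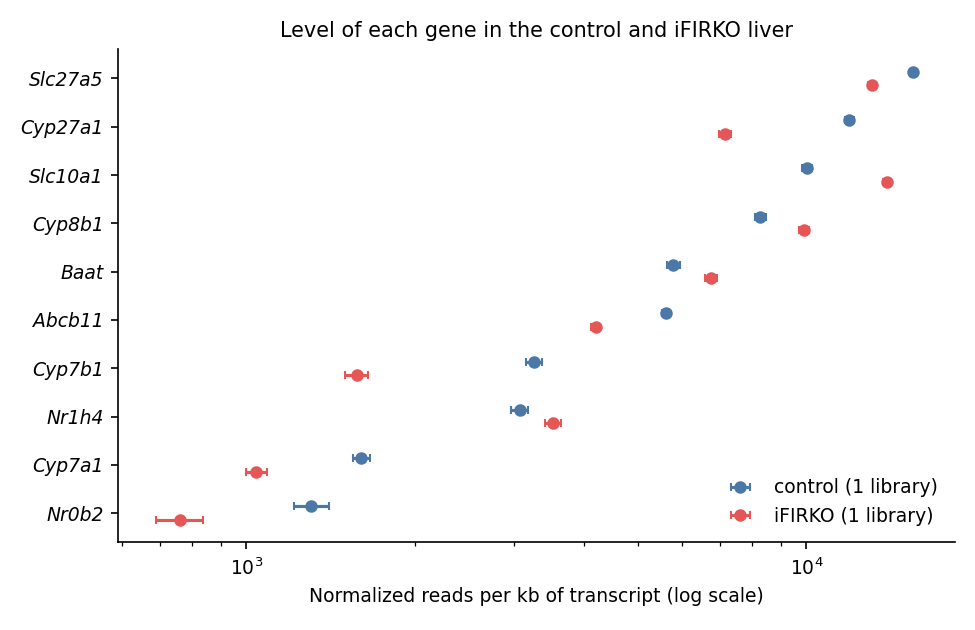
Level of each bile acid gene in normalized reads per kb of its longest protein-coding transcript, on a log axis, in the control (blue) and the iFIRKO library (red). Bars are 95% exact Poisson intervals of the estimated read pairs. *Cyp27a1* lies below *Slc10a1* and *Cyp8b1* in the iFIRKO library, and *Cyp7a1* and *Nr0b2* are the lowest in both.

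**Figure D3:**
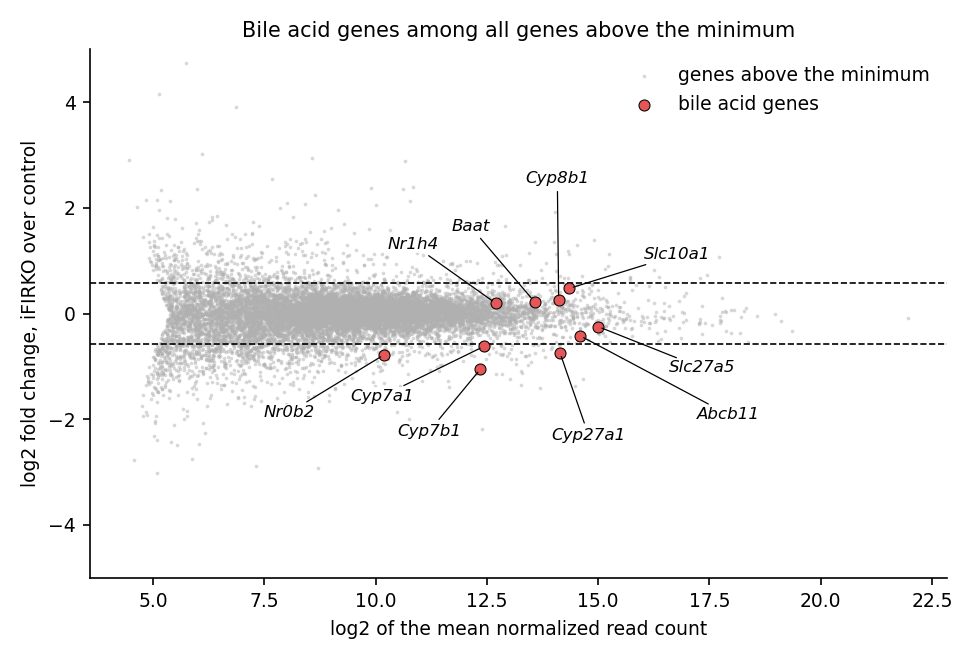
Log2 fold change, iFIRKO over control, against the log2 of the mean normalized read count of both libraries, for 13400 genes above the minimum (grey) and the 10 bile acid genes (red). Dashed lines mark 1.5-fold. The spread narrows towards abundant genes, and 4 bile acid genes lie under the lower line.

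Other genes of the pathway were read from 10 lists, with 66 distinct genes of which 62 were above the minimum. More than 1.5-fold lower were 10 of the 62 (16.1%), beside 7.28% of all genes above the minimum, and more than 1.5-fold higher were 4 (6.45%), the latter near the background of 4.46%, and their median log2 fold change was -0.05. In the list of steroid ring enzymes, none of the genes whose enzyme acts on the ring passed the limit. *Akr1d1*, the reductase that sets the ring in its bile acid shape, had 12735 and 12984 normalized reads, a log2 fold change of 0.03 (-0.02 to 0.08), and *Akr1c6*, which may share reads with close paralogs, had -0.07. *Hsd3b7*, the dehydrogenase that acts on the product of CYP7A1, stood at -0.34 (-0.41 to -0.27). The list also held *Cyp46a1*, the cholesterol 24-hydroxylase known from neurons, which acts on the side chain and not on the ring. It was the 1 gene of 5 above the minimum that passed the limit, at 27.8 and 68.5 normalized reads and a log2 fold change of 1.18 with a wide interval (0.36 to 2.31).

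Of the genes that shorten the side chain in the peroxisome, 6 of 7 were above 0. The median log2 fold change of the 7 was 0.42, against 0.0075 over all genes above the minimum. *Scp2*, whose products include SCPx, the thiolase of that step, was at 56525 normalized reads (control) and 100088 (iFIRKO). That is a log2 fold change of 0.82 (0.80 to 0.85), a gene-level value that does not tell its products apart. *Scp2* was the 1 gene of 7 (14.3%) past the limit, beside 4.46% of all genes above the minimum that were past it upwards. *Hsd17b4*, the peroxisomal multifunctional enzyme, stood at 0.56 (0.52 to 0.61), *Acot8* at 0.45 and the peroxisomal importer gene *Abcd3* at 0.42. The intervals of *Hsd17b4* and *Acot8* include the limit. *Slc27a2*, the ligase that activates the intermediates, was level at -0.0029 (-0.03 to 0.03). These enzymes also serve fatty acid oxidation. *Cyp7a1* and *Cyp27a1*, which open the routes, were past the limit downwards, and of the peroxisomal genes *Scp2* was past it upwards.

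Mice convert chenodeoxycholic acid to muricholic acids by *Cyp2c70*. It measured 32682 normalized reads in control against 12670 in iFIRKO, that is a log2 fold change of -1.37 (-1.41 to -1.33), farther from control than any of the 10 genes. The *Cyp2c* genes are close paralogs that could share reads, so its value is uncertain. *Cyp2a12*, which rehydroxylates bile acids that bacteria have altered, had 23206 and 28988, a log2 fold change of 0.32 (0.29 to 0.36).

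Among canalicular exporters, 1 of 7 (14.3%) was past the limit downwards and 1 upwards, beside 7.28% and 4.46% of all genes above the minimum. *Abcg8*, which with *Abcg5* forms the cholesterol exporter of bile, stood at 1418 in the control and 709 in the iFIRKO library (normalized reads), with a log2 fold change of -0.996 (-1.19 to -0.81). *Abcg5* had 1738 and 1289, a log2 fold change of -0.43 (-0.58 to -0.28). *Abcb4*, the phospholipid floppase, stood at 0.54 (0.48 to 0.60), and *Abcg2* passed the limit at 0.64 (0.54 to 0.75). *Abcc2*, the exporter of conjugates, was level at 0.04 (-0.00225 to 0.08). Of the exporter genes for the main bile lipids, *Abcb11*, *Abcg5*, *Abcg8* and *Abcb4*, only *Abcg8* was past the limit. The intervals of *Abcb4* and *Abcg2* include the limit, so the depth does not place them firmly inside or past it.

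At the sinusoidal membrane, the organic anion carriers *Slco1b2* (-0.18), *Slco2b1* (0.14) and *Slco1a1* (0.34) were within the limit, and *Slco1a4* was past it, at 3148 (control) and 1783 (iFIRKO) normalized reads and a log2 fold change of -0.82 (-0.94 to -0.70). The *Slco1a* genes are paralogs whose reads may be shared. None of the 4 efflux genes above the minimum passed the limit, beside 7.28% downwards and 4.46% upwards of all genes above the minimum. *Abcc3* had a log2 fold change of -0.25, *Abcc6* of -0.17 and *Abcc4* of 0.21, while *Slc51b* had only 74.3 and 50.3 normalized reads and an interval from -1.34 to 0.22. *Slc51a*, whose product pairs with that of *Slc51b*, was listed at 0 in both libraries.

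The partners of FXR were close to control. *Rxra*, its heterodimer partner, had 14902 and 14396 normalized reads, a log2 fold change of -0.05 (-0.10 to -0.00273), and *Rxrg* had 0.20 (-0.07 to 0.48). *Fgfr4* and *Klb*, which together receive FGF15 at the hepatocyte, had 0.22 (0.08 to 0.36) and -0.09 (-0.27 to 0.09). *Med1*, a subunit of the Mediator coactivator, had 0.0040 (-0.15 to 0.16). *Fgf15* was listed at 0 in both libraries, as were the enterocyte genes *Fabp6* and *Cdh17*. Of the 7 genes above the minimum, 0 passed the limit in either direction. Over all genes above the minimum, 7.28% passed it downwards and 4.46% upwards.

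Of 10 FXR target genes above the minimum, other than *Nr0b2* and *Abcb11*, 3 were past the limit downwards and 0 upwards, beside 7.28% and 4.46% of all genes above the minimum. Their median was -0.15, and -0.05 with a minimum of CPM 5, which *Akr1b7* and *Slc51b* do not reach. *Akr1b7*, an aldo-keto reductase, was at 157 normalized reads (control) and 45.3 (iFIRKO), giving a log2 fold change of -1.70 (-2.58 to -1.13). *Osgin1* had 10136 and 4597, a log2 fold change of -1.14 (-1.21 to -1.07). *Fetub*, the gene of the secreted protein fetuin-B, had 19376 and 12442, a log2 fold change of -0.64 (-0.69 to -0.59). *Sdc1* stood at 0.18 and *Abcb4* at 0.54 as given above, both inside the limit. *Abcb4*, *Abcc2*, *Slc51a* and *Slc51b* stand in this list and in a transporter list.

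Regulators of *Cyp7a1* were below 0 in 13 of 15, with a median of -0.07, against 0.0075 over all genes above the minimum. Of those below 0, several had an interval that included no change. Past the limit downwards were 2 (13.3%), beside 7.28% of all genes above the minimum. Activators and repressors stand together in this list, so its count and median have no single meaning for *Cyp7a1*. *Hnf4a*, the receptor that drives hepatocyte genes, had 29516 and 28673 normalized reads, a log2 fold change of -0.04, and *Cebpa* had -0.07. *Nr5a2*, the LRH-1 gene, stood at -0.28 (-0.40 to -0.15) and the coactivator gene *Ppargc1a* at -0.43 (-0.71 to -0.17). *Zfp36l1*, which encodes an RNA-binding protein that promotes the decay of its target mRNAs, had 15228 and 9120, a log2 fold change of -0.74 (-0.79 to -0.69). *Dbp*, a clock output activator, passed the limit at -1.02 on only 49.2 and 22.1 normalized reads, with an interval from -2.34 to -0.09. It rests on 25 and 11 estimated read pairs and is not among the genes that reach a minimum of CPM 5.

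**Figure D4:**
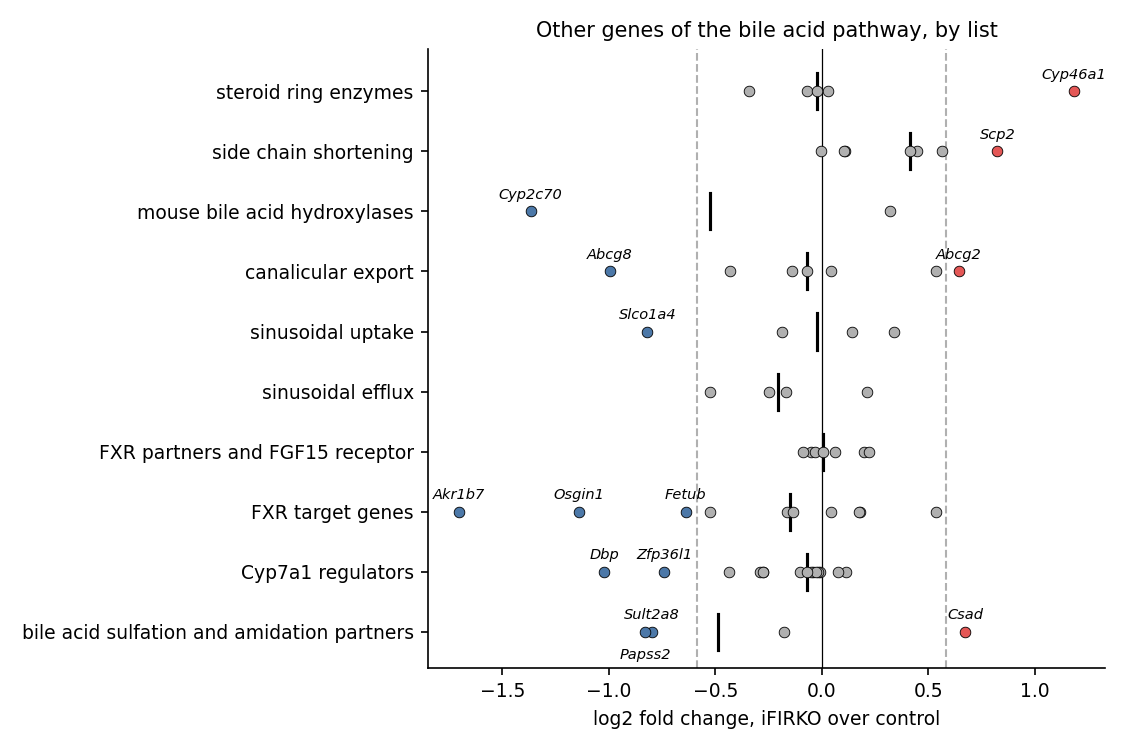
Log2 fold change, iFIRKO over control, of pathway genes above the minimum, by list. Each point is a gene, with higher genes past 1.5-fold (dashed lines) in red, lower ones in blue and the others in grey, and the black tick is the list's median. Apart from *Slc27a2* at 0, the side chain list sits to the right, and *Cyp2c70*, *Akr1b7* and *Osgin1* lie farthest to the left.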

How the data were processed

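Liver mRNA of 1 control and 1 iFIRKO sample was sequenced from stranded TruSeq libraries. The authors deposited, for each gene symbol, log2 values of normalized read counts, in which scaled counts of 1 or less are listed at 0. The submitters' processing notes name mm10 as the build. Aligner, counter, annotation and the use of strand in counting are not given in the sources used here.

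Linear values were computed from them. The commonest low value, 1.99 normalized reads in control and 2.01 in iFIRKO, was taken as 1 read pair. Of values below 20, 48.2% and 46.9% were whole pairs within 0.01, so they were not treated as counts, and read pairs behind intervals are estimates. Genes reaching CPM 1 (41.8 normalized reads) in either library entered, with a pseudocount of a CPM of 0.1. A gene at 3 read pairs or fewer got no fold change. Named were all 10 members and, per list, up to 3 genes by level and 3 by fold. *Abcg5*, *Nr5a2*, *Slc51a*, *Fgf15*, *Sult2a1* and the marker genes were named outside that rule, after their values were seen. Members and lists were chosen with earlier results of these data known. With 2 libraries no genes were sought for likeness of pattern. The functions were tested on simulated data. Alternatives were a pseudocount of CPM 1, the plain ratio, 3 scalings, a fold of 2, no minimum, a minimum of CPM 5, and CPM 1 in both libraries.

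Positions came from GENCODE M21 (GRCm38, the same assembly as mm10), in which no expressed gene overlapped a member. Scripts ran in Python 3.11.15 with scipy 1.17.1, pandas 2.3.3, numpy 2.4.6 and matplotlib 3.10.9.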

Additional observations from a re-analysis of the deposited data

How the results depend on the processing

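Across 9 alternatives, the same 4 genes, *Cyp27a1*, *Cyp7a1*, *Cyp7b1* and *Nr0b2*, were more than 1.5-fold lower under 8. The settings without a minimum, with CPM 5 and with CPM 1 in both libraries could not change these calls. They alter only which genes enter, and every member was at a CPM of 20.7 or more in both libraries. With a fold of 2, 1 remained (*Cyp7b1*), and the pathway genes numbered 1 higher and 4 lower in place of 4 and 10, which follows from the stricter limit. None of the 50 values of single members under another pseudocount or scaling left its interval or changed sign, and their median lay between -0.35 and -0.33. The 3 scalings shifted log2 fold changes by -0.0075 (median ratio), 0.0027 (TMM) and -0.012 (total without the 20 most abundant genes). The median of the FXR partner list, 0.0040, turned to -0.0035 and -0.0081 under the first and the last of these. The sulfation and amidation median moved from -0.49 to -0.18 without a minimum, where *Sult2a1* enters. The FXR target median moved from -0.15 to -0.05 with a minimum of CPM 5. Counting intervals were widest for *Dbp*, *Cyp46a1*, *Slc51b* and *Akr1b7* among the pathway genes above the minimum and for *Nr0b2* among the members. No paired analysis was possible because neither group holds more than 1 library.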

Other observations

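Genes around the sulfation and amidation of bile acids, the list not described above, had a median log2 fold change of -0.49. Of the 4 genes above the minimum, 1 (25%) was past the 1.5-fold limit upwards and 2 (50%) downwards. Over all genes above the minimum these shares were 4.46% and 7.28%, and a list of 4 genes is small. *Csad* encodes the enzyme that makes hypotaurine, the precursor of taurine, from cysteine sulfinate. It measured 14744 normalized reads in control against 23495 in iFIRKO, that is a log2 fold change of 0.67 (0.63 to 0.71). *Cdo1*, the dioxygenase that acts before it, had 40294 and 35652, a log2 fold change of -0.18 (-0.21 to -0.15). *Papss2*, which makes the sulfate donor, had 18412 and 10357, a log2 fold change of -0.83 (-0.88 to -0.78). *Sult2a8*, a bile acid sulfotransferase of mouse liver, had 13278 and 7629, a log2 fold change of -0.80 (-0.86 to -0.74). *Papss2* and *Sult2a8* were thus past the limit downwards and *Csad* upwards, with *Cdo1* inside it. *Sult2a1* had only 16.9 and 16.1 normalized reads. *Sult2a* genes are paralogs whose reads may be shared.

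*Slc10a2*, the apical bile acid carrier that was listed here with the cholangiocyte genes, was at 2617 normalized reads (control) and 2608 (iFIRKO). It was the largest part of that list's sum, while *Krt19* had 176 and 131 and *Krt7* 97.5 and 70.5. *Fabp2*, listed with the enterocyte genes, had 456 and 1384, a log2 fold change of 1.59 (1.39 to 1.83), whereas *Vil1* had 11.9 and 14.1 and *Lct* was at 3 read pairs or fewer in both libraries.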
